A study of Mus musculus with 33 samples.

Results

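Graft Tregs were the CD4+GFP+ cells sorted from a pig islet xenograft at the kidney of tolerant mice, and SP/CD127-/lo Tregs were the CD4+GFP+ cells with little or no CD127 sorted from the spleen (SP) of tolerant mice. The libraries were taken by their titles, 3 of each subset, which gave 6 of the 33 libraries of the series. All genes were compared between them. The comparison asked how Tregs that had settled in the accepted graft differed from the splenic Tregs that stained weakly for CD127, the interleukin-7 receptor alpha chain.

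All mice of both groups were DEREG mice, which carry a transgene with the Foxp3 promoter in front of a diphtheria toxin receptor fused to EGFP, so that GFP marked the cells with an active transgene. All had received 4000 islet equivalents of porcine neonatal islet cell clusters (NICC) under the renal capsule, 500 µg of the CD154 antibody MR-1 on each of days 0, 2, 4 and 6, together with 500 µg of CTLA4-Fc on day 0. Cells were taken at day 100, and the age of the mice is not given in the sources used here. The methods give male mice, and each library as a pool of several mice from 2 transplant experiments. They do not say which mice entered which pool, so that p-values measured the spread between libraries, which may share mice. The p-values of single genes came from a model of all 33 libraries, and so used the spread within every subset of the series. Graft Tregs were not gated on CD127, and the graft and the spleen were dissociated in different ways, so that tissue, gate and preparation cannot be told apart.

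Foxp3+ regulatory T cells (Tregs) restrain other immune cells and are held in this state by the transcription factor Foxp3. Most Tregs circulate through lymphoid organs, while others enter tissues, where chemokine receptors such as CXCR6 and CCR2, the interleukin-33 receptor ST2 (Il1rl1) and the integrin CD103 (Itgae) are known markers of tissue or effector Tregs. CD127 transmits the survival signal of interleukin-7 and is low on most resting Tregs.

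Each graft library held between 3565636 and 4158539 counts on genes, and each SP/CD127-/lo library between 3660330 and 4181135. At this depth 3 counts correspond to about 0.755 to 0.894 CPM, the count of a gene scaled to its library's total on genes times the library's TMM factor, and a gene listed at 0 may lie anywhere below that. Over the 9600 genes with a mean of at least 5 CPM, the log2 CPM of the SP/CD127-/lo libraries correlated with each other at Pearson's r of 0.781 to 0.823, those of the graft libraries with each other at 0.583 to 0.615, and graft with SP/CD127-/lo libraries at 0.637 to 0.724. These correlations run across genes of libraries made from small pools of sorted cells. The graft libraries therefore resembled one another less than each resembled the splenic ones.

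Across the 25347 genes tested, of 31054 features counted, 21 were differentially expressed genes (DEGs, adjusted p under 0.05 in edgeR's quasi-likelihood test) (0.0829%), 14 higher in graft Tregs (0.0552%) and 7 lower (0.0276%). The higher DEGs included the chemokine receptor gene Cxcr6, the transcriptional regulator Id2, the activating receptor gene Klrk1, the chemokine gene Ccl8, the nuclear noncoding RNA Malat1, 4 mitochondrially encoded genes, the kidney gene Kap, and H2-Ab1, Cr2 and Blnk, which are genes of antigen-presenting or B cells. The lower DEGs were Fcmr, Plek, Iglc2, Jchain, Gcsh, Tmem185a and the noncoding Gm13546. Beside them, 1942 genes had an unadjusted p under 0.05 (7.66%), 853 of them higher (3.37%) and 1089 lower (4.3%). The groups of 1824 genes did not overlap (7.2%), 798 higher in graft Tregs (3.15%) and 1026 lower (4.05%). Of the 9600 genes with a mean of at least 5 CPM, 15 were DEGs (0.156%), 525 had an unadjusted p under 0.05 (5.47%), and the groups of 1404 did not overlap (14.6%). In bulk libraries such as these, fewer cells of a type and less RNA per cell cannot be told apart.

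**Figure D1:**
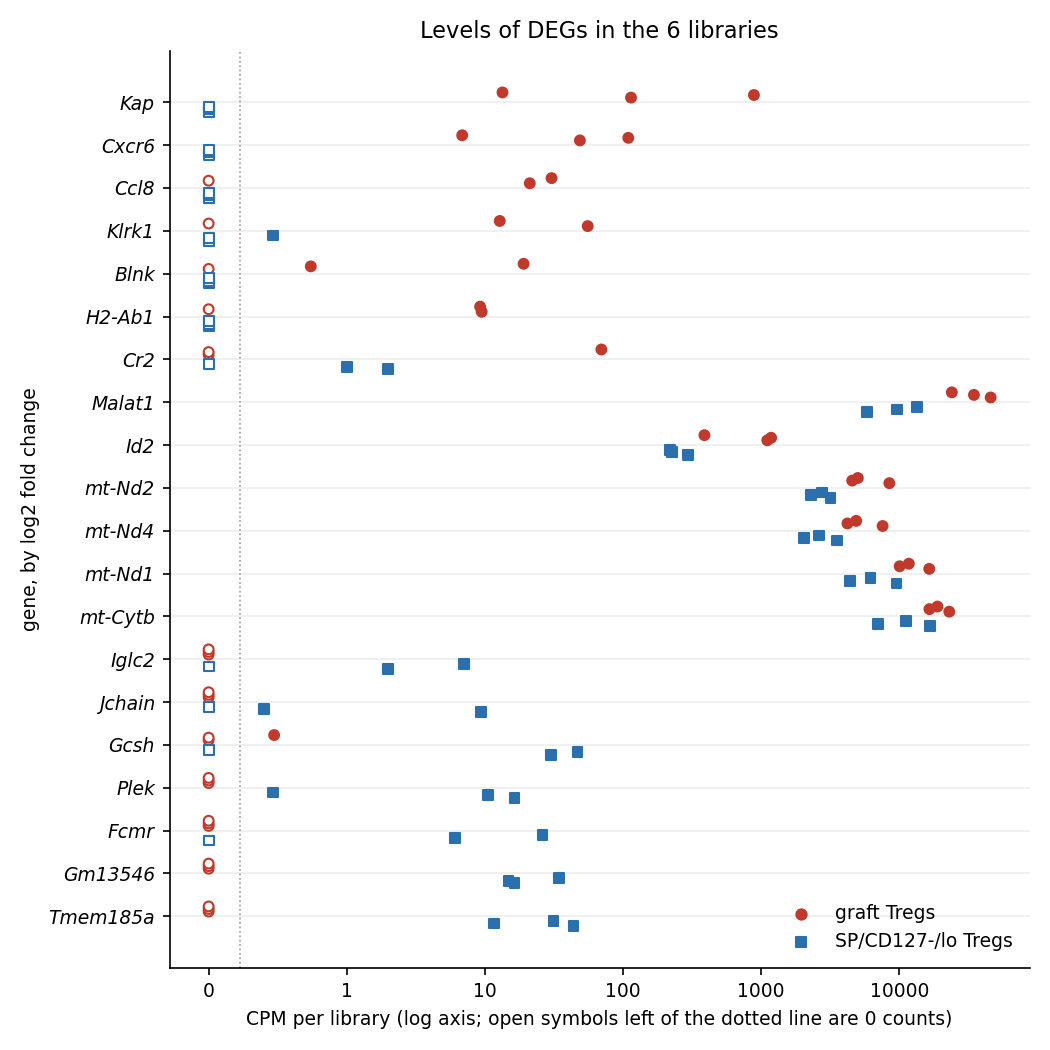
CPM of the DEGs named in the text on a log axis in the 3 graft Treg libraries (red circles) and the 3 SP/CD127-/lo Treg libraries (blue squares), with genes ordered by log2 fold change and open symbols for libraries without a count. The groups of 10 DEGs do not overlap, and many of the others are at 0 in every library of 1 group.

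The calls fell into genes with reads in every library and genes with reads in few. Malat1, Id2 and the mitochondrial genes were measured in all 6 libraries, while 12 of the 21 DEGs were listed at 0 in every library of 1 group. The groups of 10 DEGs did not overlap, 7 higher and 3 lower in graft Tregs. With a newer form of the quasi-likelihood test, chosen after the data were seen, 76 genes passed (0.3%), 47 higher (0.185%) and 29 lower (0.114%), and 11 of the 21 DEGs were among them. These 11 were Malat1, Kap, Cxcr6, Id2, mt-Nd1, mt-Nd2, mt-Nd4, mt-Cytb, Cr2, Gcsh and Tmem185a.

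**Figure D2:**
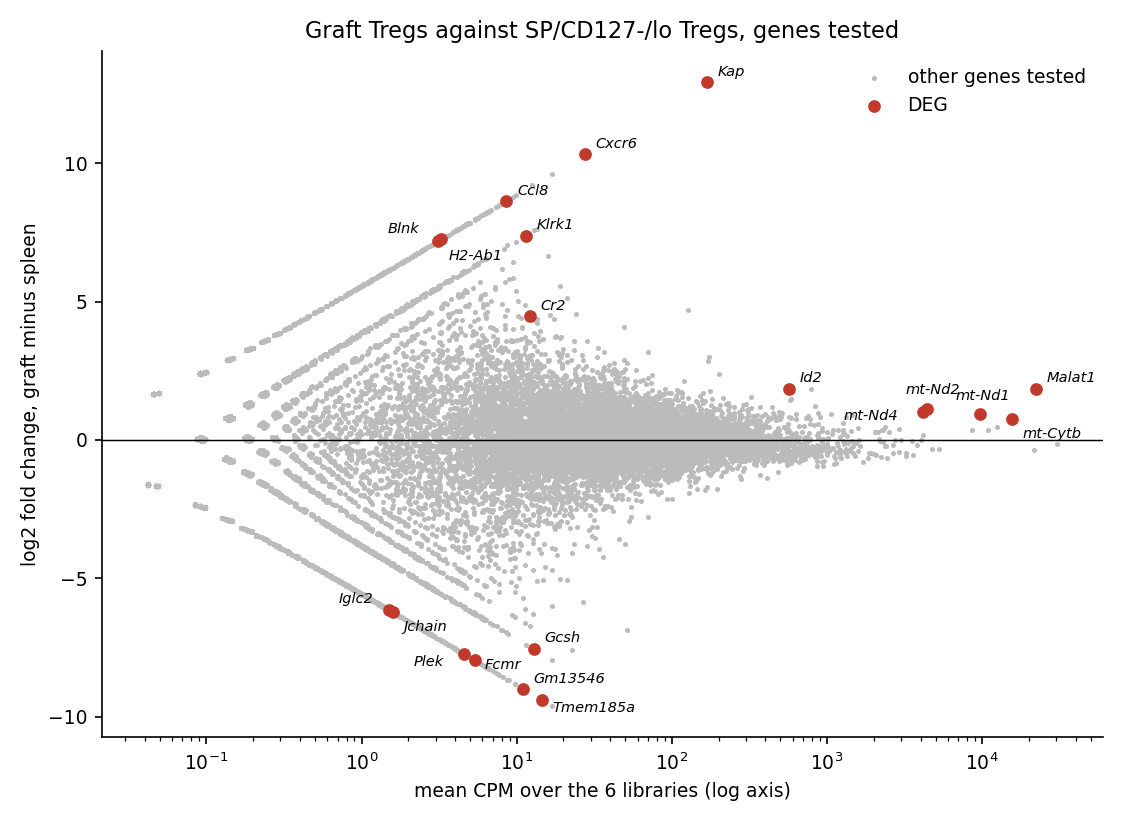
Log2 fold change of graft Tregs minus SP/CD127-/lo Tregs against the mean CPM over the 6 libraries (log axis) for the genes tested, with the named DEGs in red. Malat1, Id2 and the mitochondrial DEGs lie at the right, and many other DEGs lie at the outer edges, where a group has no counts and the fitted fold change depends on the prior count.

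Foxp3 and the other genes of the Treg identity list did not pass the test in either direction. Foxp3 had 529, 600 and 672 CPM in graft Tregs and 394, 342 and 323 CPM in SP/CD127-/lo Tregs. The 3 graft libraries lay above the 3 splenic ones, with a log2 fold change of 0.77 and an adjusted p of 0.850 from edgeR's quasi-likelihood test. EGFP, the reporter of the sort, had 91.5, 74.9 and 67.9 CPM in graft Tregs and 96.6, 67.7 and 48.7 CPM in SP/CD127-/lo Tregs, and the groups overlapped. Cd4 had 121, 101 and 94.7 CPM against 124, 115 and 178 CPM in SP/CD127-/lo Tregs. Il2ra, which encodes the high-affinity interleukin-2 receptor chain CD25, had 326, 237 and 262 CPM in graft Tregs and 528, 390 and 609 CPM in SP/CD127-/lo Tregs, with no overlap and an adjusted p of 0.817. Of the 17 genes of the Treg identity list tested, which also held Ctla4 and Ikzf2, 0 were DEGs, 0 had an unadjusted p under 0.05, and the median log2 fold change was -0.01. The groups of 2 members did not overlap in the higher direction and of 3 in the lower, against 6.76% and 7.86% of genes with a mean of at least 5 CPM. The lower ones were Il2ra, Izumo1r and Il2rb. A list of 8 markers used to check the sort, which held Foxp3, EGFP, Cd4 and Il2ra, also held Cxcr6, its 1 DEG.

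Cxcr6, the receptor for CXCL16, was present in every graft library and in no SP/CD127-/lo library. Its level was 48.7, 109 and 6.85 CPM in graft Tregs (54.9 ± 51.5, SD, n = 3) and 0 in each SP/CD127-/lo library, at least 66.4-fold higher in graft Tregs with 3 counts per library as the limit (adjusted p = 2.35e-05). The groups did not overlap, and graft replicate 3 lay far below the other graft libraries. Cxcr6 was also found in both other spleen Treg subsets, at 20.6 ± 10.3 CPM in SP/naive Tregs and 9.03 ± 14.2 CPM in SP/CD127hi Tregs, and at 182 ± 46.6 CPM in the Foxp3- CD4+ T cells of tolerant spleen. It was a DEG in 14 of 16 alternative settings, among them each fit without 1 library, and had an adjusted p of 0.331 with a stricter filter on low counts and of 0.0922 in a model of the 6 libraries alone. The gene (ENSMUSG00000048521) lies on chromosome 9 from 123806475 to 123811760 (GRCm38, plus strand) within the longer Fyco1 on the other strand. Since the libraries carried no strand, reads of the overlap cannot be told apart, and Fyco1 had 119, 341 and 346 CPM in graft Tregs and 63.8, 74.7 and 148 CPM in SP/CD127-/lo Tregs, with an adjusted p of 0.492.

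The 250 bases before the start of Cxcr6 and of Id2 are shown because these genes of T cells were the DEGs that were higher in all graft libraries other than Malat1, Kap and the mitochondrial genes. They were taken from RefSeq on GRCm38.p6, at chr9:123806227-123806476 on the plus strand and at chr12:25096093-25096342 on the minus strand. The RefSeq start of Id2 lies inside the gene as GENCODE vM21 draws it, from 25093799 to 25097140, so that the stretch shown for Id2 falls within that gene.
Cxcr6: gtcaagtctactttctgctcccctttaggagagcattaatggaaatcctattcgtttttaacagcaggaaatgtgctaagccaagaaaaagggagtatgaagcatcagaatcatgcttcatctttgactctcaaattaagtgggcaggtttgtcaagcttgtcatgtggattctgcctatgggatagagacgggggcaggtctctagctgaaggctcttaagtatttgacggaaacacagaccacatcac
Id2: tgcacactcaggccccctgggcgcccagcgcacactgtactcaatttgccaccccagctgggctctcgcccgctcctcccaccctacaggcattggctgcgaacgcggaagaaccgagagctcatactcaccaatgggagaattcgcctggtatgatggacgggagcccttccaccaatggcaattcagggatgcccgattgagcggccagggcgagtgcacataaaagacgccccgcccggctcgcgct
On both strands, TGANTCA was searched as a pattern of AP-1, TTCNNNGAA as one of STAT factors, AGATAA as one of GATA factors and TGTTTAC as one of forkhead factors. No match was found in either sequence, so that no letter is in capitals, and 0 of the 14 DEGs with an entry had a match to any of the 4. Over the 27025 promoters of the same length, 6.87% held the AP-1 pattern, 7.18% the STAT pattern, 10.3% the GATA pattern and 3.09% the forkhead pattern. The GC content was 43.6% for Cxcr6 and 62.8% for Id2, against a median of 52% over all promoters.

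Among the 26 chemokine receptor genes tested, Cxcr6 was the only DEG, and 5 had an unadjusted p under 0.05 in the higher direction and 1 in the lower, against 3.37% and 4.3% of all genes. Ccr2, which guides cells to CCL2 in inflamed tissue, had 291, 367 and 246 CPM in graft Tregs and 24.3, 2.52 and 98.5 CPM in SP/CD127-/lo Tregs. The groups did not overlap, the log2 fold change was 2.85 ± 0.85 (SE), and the adjusted p was 0.268, or 0.00622 with the newer test. Cxcr5, the receptor that leads cells into B cell follicles, had 7.85, 15.4 and 8.94 CPM in graft Tregs and 51.4, 17.1 and 116 CPM in SP/CD127-/lo Tregs, again without overlap and with an adjusted p of 0.610. Among the chemokine genes, Ccl8 had 21.1, 0 and 30.4 CPM in graft Tregs and 0 in each SP/CD127-/lo library, at least 20.8-fold higher in the mean (adjusted p = 0.0142). Graft replicate 2 had none, so that the groups overlapped, and the call was lost whenever 1 SP/CD127-/lo library was left out, with adjusted p from 0.127 to 0.149.

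Id2, an inhibitor of E proteins that is high in effector T cells and tissue Tregs, rose in graft Tregs. It had 1108, 1181 and 388 CPM in graft Tregs (892 ± 438, SD, n = 3) and 297, 226 and 218 CPM in SP/CD127-/lo Tregs (247 ± 43.6), a log2 fold change of 1.85 ± 0.44 (adjusted p = 0.0477). The 3 graft libraries were above the splenic ones, although graft replicate 3 lay much nearer to them than the others. Without graft replicate 1 or 2, or any 1 of the SP/CD127-/lo libraries, the adjusted p was between 0.102 and 0.333. Id2 was the single DEG among 33 transcription factor genes of effector and tissue Tregs, against 0.0552% of all genes in the higher direction, and 2 members had an unadjusted p under 0.05 in each direction, against 3.37% and 4.3%. Its relative Id3, which is high in resting Tregs, had 112, 158 and 83.7 CPM in graft Tregs and 355, 262 and 266 CPM in SP/CD127-/lo Tregs, with no overlap, a log2 fold change of -1.32 and an adjusted p of 0.421. Gata3 (203 ± 62.0 against 109 ± 23.7 CPM) and Rora (317 ± 77.4 against 130 ± 26.6 CPM) were higher in each graft library and did not pass the test.

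Among 51 effector and suppressor genes, 34 had a positive log2 fold change and 15 a negative one, with a median of 0.29 against 0.00 over all genes tested. Klrk1 was the DEG of this list, and 10 members had an unadjusted p under 0.05 in the higher direction and 2 in the lower, against 3.37% and 4.3% of all genes. This list, like the others, was chosen with earlier results of these data known, so that its counts are not independent of them. Klrk1, which encodes the activating receptor NKG2D, had 55.5, 0 and 12.8 CPM in graft Tregs and 0, 0 and 0.293 CPM in SP/CD127-/lo Tregs, a ratio of 253 with a counting interval from 45.1 to 10047 (adjusted p = 0.0122). It came from graft replicates 1 and 3, and the adjusted p was between 0.0619 and 0.193 without graft replicate 1 or any 1 of the SP/CD127-/lo libraries, and 0.0564 with the newer test. Fgl2, which encodes a soluble suppressor molecule, had 189, 486 and 253 CPM in graft Tregs and 48.9, 47.3 and 19.9 CPM in SP/CD127-/lo Tregs. Itgae had 112, 178 and 134 CPM against 22.6, 69.7 and 25.5 CPM. Both were without overlap, and neither passed the test, with adjusted p of 0.327 and 0.558, or 0.00622 and 0.221 with the newer test.

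The cytokine receptor genes held 0 DEGs among 36 tested and 4 members with an unadjusted p under 0.05 in the higher direction, against 3.37% of all genes, which were Il7r, Il1rl1, Ifngr1 and Il18r1. In the lower direction there was 1, Csf1r, against 4.3%. Il7r, the gene of the CD127 gate, had 1165, 694 and 739 CPM in graft Tregs (866 ± 260, SD, n = 3) and 270, 303 and 360 CPM in SP/CD127-/lo Tregs (311 ± 45.6), a log2 fold change of 1.48 ± 0.37 and an adjusted p of 0.0685. SP/CD127-/lo Tregs were sorted for little CD127 and graft Tregs were not, so that gate and tissue cannot be told apart for this gene. The CD127hi Tregs of tolerant spleen had 1236, 1082 and 1198 CPM.

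Il1rl1, the receptor for interleukin-33, had 475, 126 and 131 CPM in graft Tregs and 7.35, 4.03 and 16.7 CPM in SP/CD127-/lo Tregs, a log2 fold change of 4.70 ± 1.18 and an adjusted p of 0.0753. Each graft library was above every splenic one. The SP/CD127hi Tregs had 147, 114 and 237 CPM, between which graft replicates 2 and 3 lay, while graft replicate 1 lay above them. Ifngr1, the ligand-binding chain of the interferon-gamma receptor, had 1422, 1182 and 1056 CPM in graft Tregs and 424, 383 and 224 CPM in SP/CD127-/lo Tregs (adjusted p = 0.134). Its lowest graft level also lay above the 615, 463 and 481 CPM of SP/CD127hi Tregs, a difference not tested here. With the newer test the adjusted p was 0.0171 for Il7r, 2.46e-05 for Il1rl1 and 0.022 for Ifngr1, while Il18r1, the receptor for interleukin-18, had 194 ± 66.2 against 44.5 ± 8.94 CPM and an adjusted p of 0.0935.

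**Figure D3:**
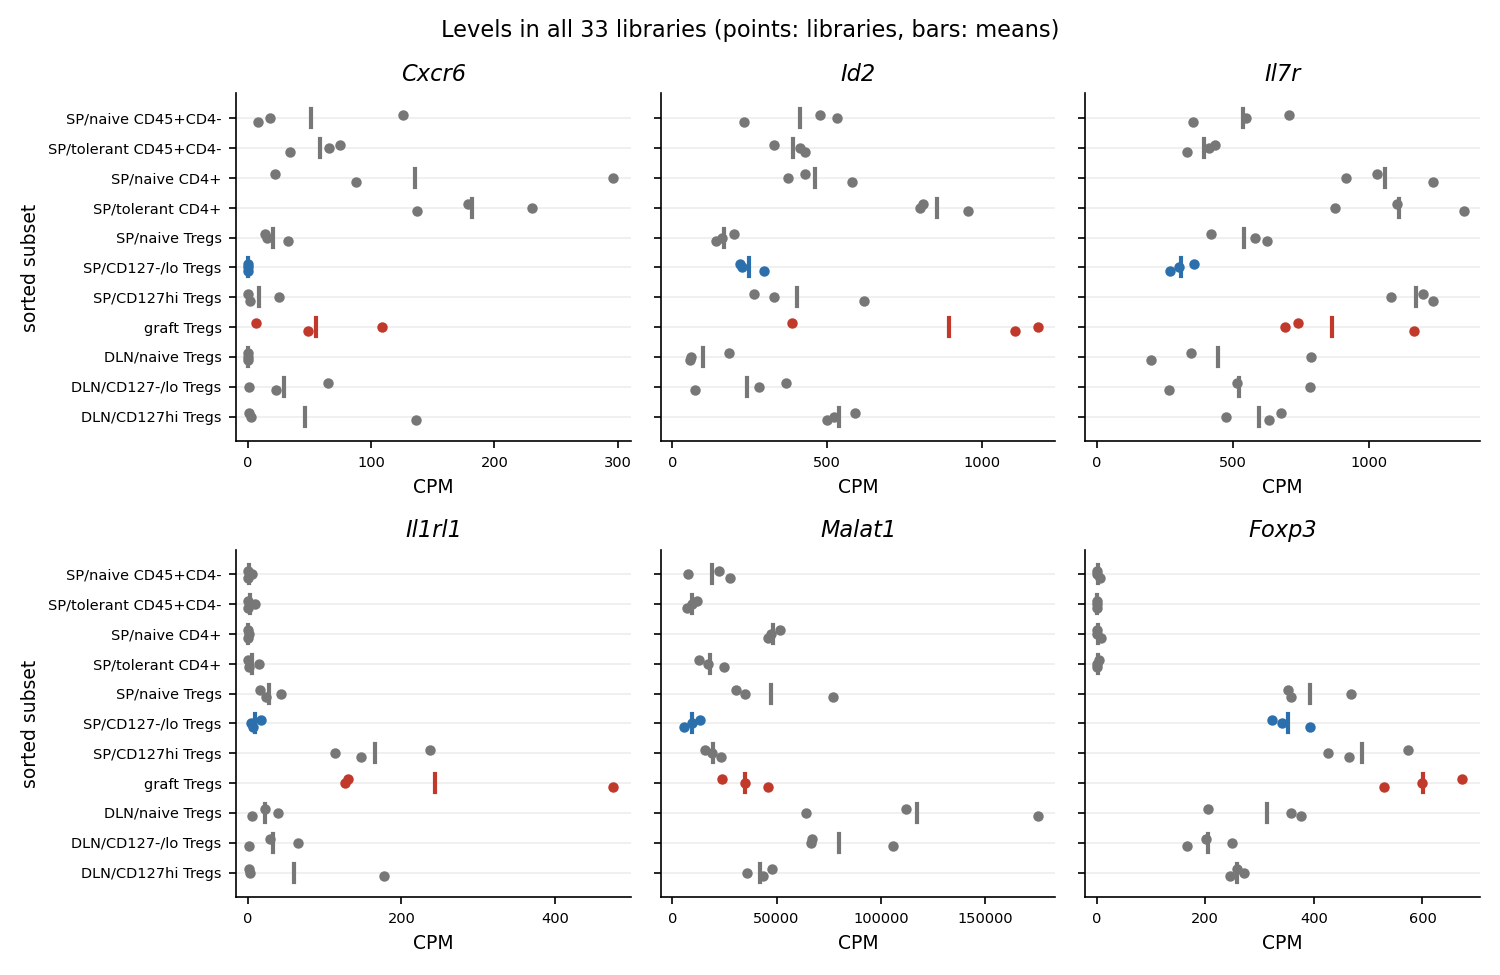
CPM of 6 genes in all 33 libraries by sorted subset, with a point per library and a bar at the mean, graft Tregs in red and SP/CD127-/lo Tregs in blue. Graft Tregs have the highest mean of Id2, Il1rl1 and Foxp3, whereas Cxcr6, Il7r and Malat1 are as high or higher in other subsets.

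Malat1, a nuclear long noncoding RNA, was the DEG with the smallest p. It had 45886, 34734 and 24011 CPM in graft Tregs and 5803, 9628 and 13397 CPM in SP/CD127-/lo Tregs, a log2 fold change of 1.86 ± 0.15 (adjusted p = 4.38e-23). The groups did not overlap, and the share of all counts on Malat1 was 3.14% ± 0.93 in graft Tregs and 0.896% ± 0.381 in SP/CD127-/lo Tregs (SD, n = 3). The exact 2-sided permutation test of the shares gave p = 0.1, which is the smallest that 3 against 3 libraries allow. The level of Malat1 varied widely between subsets, from 9479 ± 2432 CPM in the CD45+CD4- cells of tolerant spleen to 117117 ± 55597 CPM in DLN/naive Tregs, the Tregs of the draining lymph node (DLN) of naive mice, whose libraries were sequenced on another instrument. Among the Treg subsets, SP/CD127-/lo Tregs had the lowest mean. Graft Tregs lay between SP/CD127hi Tregs (19342 ± 3828 CPM) and SP/naive Tregs (47593 ± 25795 CPM). Malat1 was not a DEG with the stricter filter or with the likelihood ratio test. In a model of the 6 libraries alone its adjusted p was 0.0359. The share of reads assigned to no gene was 25.4%, 31.8% and 35.5% in graft Tregs and 13.2%, 24.9% and 25.1% in SP/CD127-/lo Tregs, also without overlap, and its part in the Malat1 result was not tested. Neat1, which is transcribed beside Malat1 on chromosome 19, had 566, 374 and 595 CPM in graft Tregs and 125, 259 and 291 CPM in SP/CD127-/lo Tregs, with an adjusted p of 0.350.

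Among transcripts of the mitochondrial genome 4 rose in graft Tregs, whereas no nuclear gene of oxidative phosphorylation was a DEG. Of 12 mitochondrially encoded genes tested, 11 had a positive log2 fold change, 4 were DEGs, against 0.0552% of all genes in the higher direction, and the median log2 fold change was 0.81. The DEGs mt-Nd1, mt-Nd2 and mt-Nd4 encode subunits of complex I, and mt-Cytb encodes the cytochrome b of complex III. mt-Nd1 had 16483, 10062 and 11730 CPM in graft Tregs and 9542, 4376 and 6182 CPM in SP/CD127-/lo Tregs, a log2 fold change of 0.93 ± 0.19 (adjusted p = 0.00438). mt-Nd2 had 8475, 4563 and 5012 CPM against 3177, 2301 and 2747 CPM, a log2 fold change of 1.13 ± 0.24 (adjusted p = 0.0122). The groups of mt-Nd1, mt-Nd2 and mt-Nd4 did not overlap. Those of mt-Cytb did, since graft replicate 2 with 16536 CPM was below SP/CD127-/lo replicate 1 with 16708 CPM. The share of counts on mitochondrially encoded genes was 6.74%, 4.33% and 5.3% in graft Tregs and 4.35%, 2.32% and 3.18% in SP/CD127-/lo Tregs (exact 2-sided permutation p = 0.2). The nuclear genome holds near-identical copies of some mitochondrial genes, whose effect on these counts was not tested. The levels of mt-Co2, mt-Co3 and mt-Atp6 were at most 16.2 CPM in any of the 6 libraries. All 4 calls were lost without graft replicate 1, with adjusted p from 0.272 to 0.446, and without SP/CD127-/lo replicate 2 or 3. They were also lost in a model of the 6 libraries alone (adjusted p from 0.506 to 0.673) and with the likelihood ratio test (0.504 to 0.811). Each of the 4 was called in 7 of the 16 alternatives.

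Of the 74 nuclear genes of oxidative phosphorylation, 63 had a negative log2 fold change, with a median of -0.35 against 0.04 over genes with a mean of at least 5 CPM, and 0 were DEGs. The single member with an unadjusted p under 0.05, in the higher direction, was Sdha, a subunit of complex II, at 411 ± 130 CPM against 194 ± 20.5 CPM in SP/CD127-/lo Tregs (adjusted p = 0.542). The groups of 2 members did not overlap in the higher direction and of 5 in the lower, against 6.76% and 7.86% of genes with a mean of at least 5 CPM. The median of this list was negative and that of the mitochondrially encoded genes positive under each of the 16 alternatives as well.

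Immediate early genes are switched on in T cells within minutes of stimulation or of handling. Of 47 tested, 30 had a negative log2 fold change and 0 were DEGs. Among the 41 with a mean of at least 5 CPM, the groups of 11 did not overlap in the lower direction and of 2 in the higher, against 7.86% and 6.76% of all genes at that level. Fos had 2.71, 0 and 0 CPM in graft Tregs and 6.22, 27.7 and 21.7 CPM in SP/CD127-/lo Tregs. Egr2 had 0, 15.1 and 0 CPM against 49.2, 78.8 and 41.3 CPM. Dusp2, a phosphatase of MAP kinases, had 95.1, 69.7 and 38.7 CPM against 201, 174 and 192 CPM. The adjusted p of these genes were 0.342, 0.552 and 0.429, and Ier3 went the other way, with 2.71, 21.7 and 27.4 CPM in graft Tregs and 0 in each SP/CD127-/lo library. The adjusted p of Ier3 was 0.308, or 0.0436 with the newer test. Of 24 heat shock genes, 14 had a negative log2 fold change, with a median of -0.38 and Hspe1 as the member with the smallest p (132 ± 6.78 against 296 ± 125 CPM, adjusted p = 0.567).

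**Figure D4:**
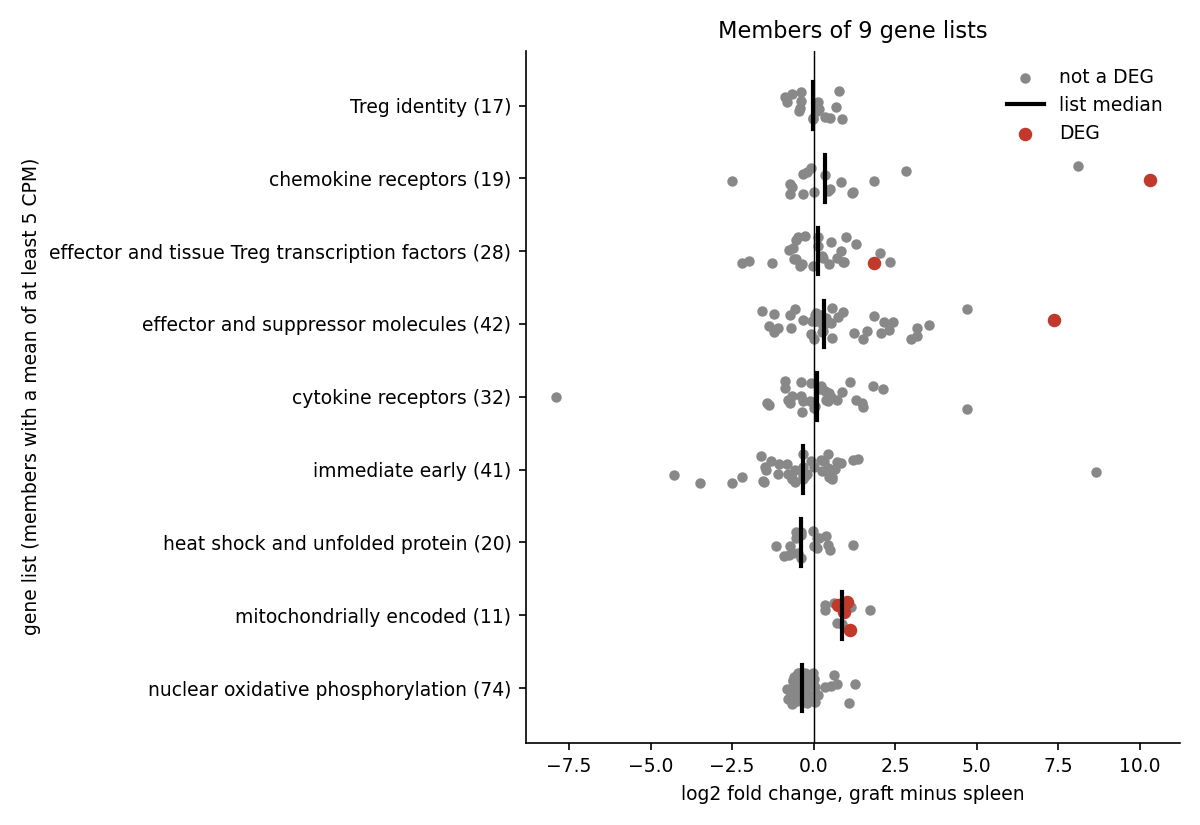
Log2 fold change of the members of 9 gene lists with a mean of at least 5 CPM, with their number in parentheses, DEGs in red and the list median as a black bar. The mitochondrially encoded genes lie to the right of 0 and most nuclear genes of oxidative phosphorylation to the left, while the Treg identity genes lie around 0.

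Cell cycle genes held 0 DEGs of 46. Cdk1, the kinase that drives mitosis, had 0, 0.274 and 0 CPM in graft Tregs and 9.32, 47.8 and 44.6 CPM in SP/CD127-/lo Tregs, with an adjusted p of 0.260, or 0.0108 with the newer test. The median log2 fold change of the list was -0.09, and 2 members had an unadjusted p under 0.05, both in the lower direction, a share like the 4.3% of all genes. The constant genes of the T cell receptor beta chain, Trbc1 (1207 ± 116 against 1806 ± 481 CPM) and Trbc2 (1426 ± 171 against 2262 ± 600 CPM), did not pass the test, and reads of these near-identical genes may have been split between them. The interferon response list had 48 members tested with a median of -0.07 and 0 DEGs.

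Kidney genes were present in each graft library. Kap, an androgen-regulated gene of the kidney tubule, had 114, 887 and 13.4 CPM in graft Tregs and 0 in each SP/CD127-/lo library, at least 409-fold higher in the mean (adjusted p = 1.06e-05). Graft replicate 2 held most of the reads, and the adjusted p was 0.115 without graft replicate 2 and 0.510 with DESeq2 in place of edgeR. The summed level of 25 kidney epithelial genes was 223, 1066 and 109 CPM in graft Tregs and 5.09, 3.02 and 2.93 CPM in SP/CD127-/lo Tregs (exact 2-sided permutation p = 0.1), and 13 of the 24 tested had an unadjusted p under 0.05 in the higher direction, against 3.37% of all genes. Among them Gpx3, the extracellular glutathione peroxidase, had 55.8, 21.1 and 3.87 CPM against 0, 0 and 0.293 CPM, and Fxyd2, a subunit of the sodium pump, had 16.8, 76.6 and 28.9 CPM against 2.83, 0.503 and 0 CPM. By the summed kidney genes, graft replicate 2 was highest and replicate 3 lowest. The same order was seen for Cxcr6, Id2 and Ccr2, and for Id3 and Hspe1, which were lower than in SP/CD127-/lo Tregs. Gpx3 and Fxyd2 had other orders, and the share of all genes in the order of the sum was not counted. The part of kidney RNA in these results was not tested.

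Markers of islets, the transplanted tissue, were low in mouse counts. Of 16 islet genes, 12 were at 0 in all 6 libraries and the sum was at most 1.08 CPM in graft Tregs and 0, 8.56 and 0 CPM in SP/CD127-/lo Tregs. Pcsk1, a prohormone convertase chosen after its values were seen, gave 8.30 CPM of the latter. The reads had been aligned to the mouse genome, and pig transcripts were not analysed here. Dendritic cell genes summed to 20.6, 23.9 and 26.8 CPM in graft Tregs and 3.11, 1.51 and 0.586 CPM in SP/CD127-/lo Tregs (exact 2-sided permutation p = 0.1), although 5 of 10 members were at 0 in all 6 libraries. Macrophage genes summed to between 461 and 1173 CPM in graft Tregs and between 749 and 1378 CPM in SP/CD127-/lo Tregs, and the groups overlapped. The summed erythroid and platelet genes reached 573 CPM in SP/CD127-/lo replicate 3 and at most 24.4 CPM elsewhere, of which Hbb-bs gave 303 CPM.

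**Figure D5:**
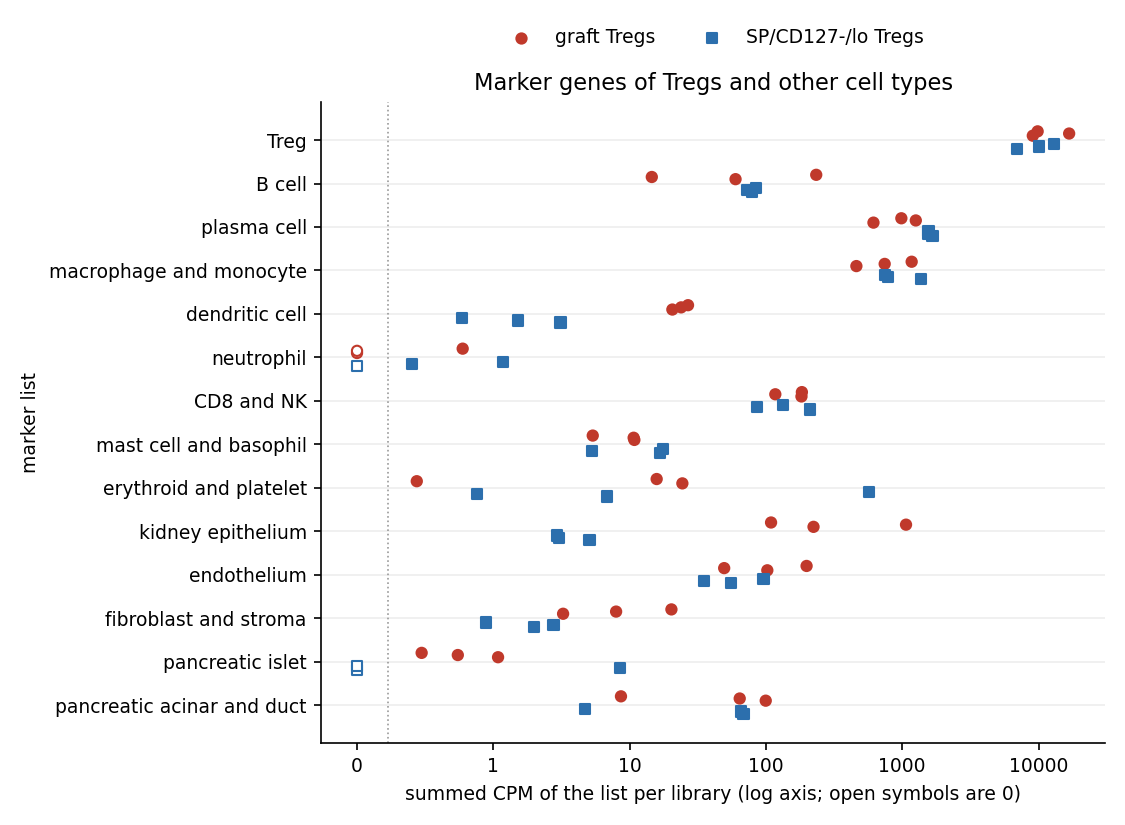
Summed CPM of marker genes of Tregs and 13 other cell types in each library on a log axis, graft Tregs as red circles and SP/CD127-/lo Tregs as blue squares. Kidney epithelial, dendritic cell and fibroblast genes are higher in all graft libraries, plasma cell genes are lower, and graft replicate 3 has the highest sum of B cell genes.

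The reads of the B cell genes Cr2 and Blnk came mostly from 1 graft library. Cr2, the complement receptor of follicular B cells, had 0, 0 and 69.7 CPM against 1.98, 1.01 and 0 CPM. Blnk, an adaptor of B cell receptor signalling, had 0, 0.549 and 19.1 CPM against 0 in each SP/CD127-/lo library. Graft replicate 3 thus held nearly all of these reads in the graft, and without this library the adjusted p was 0.284 for Cr2, with the opposite sign, and 0.807 for Blnk. The 15 B cell genes together had 59.8, 14.5 and 234 CPM in graft Tregs and 78.8, 73.2 and 84.4 CPM in SP/CD127-/lo Tregs (exact 2-sided permutation p = 1), and Pax5, Blk and Vpreb3 were at 0 in all 6 libraries. H2-Ab1, the beta chain of the class II molecule I-A, had 9.48, 0 and 9.24 CPM in graft Tregs and 0 in each SP/CD127-/lo library, at least 7.54-fold higher. Its adjusted p was 3.18e-05, and 0.188 under the newer test. It was 0.401 with the stricter filter, 0.103 in the 24 spleen and graft libraries and 0.673 in the 6 libraries alone.

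Among the lower DEGs, 4 belong to B cells, plasma cells or other blood cells. Fcmr, the receptor for the Fc part of IgM, had 0, 6.04 and 26.1 CPM in SP/CD127-/lo Tregs and 0 in each graft library, at least 12.7-fold lower in graft Tregs (adjusted p = 0.00383, and 0.150 without SP/CD127-/lo replicate 3). Iglc2, an immunoglobulin light chain constant gene, and Jchain, which joins IgM and IgA into polymers, reached at most 7.04 and 9.32 CPM in SP/CD127-/lo Tregs and were at 0 in graft Tregs (adjusted p = 0.00572 and 0.0148). Iglc2 was not a DEG without SP/CD127-/lo replicate 3, nor Jchain without replicate 1. Ighm, the heavy chain of IgM, made up most of the plasma cell list, with 571, 1108 and 800 CPM in graft Tregs and 1499, 1442 and 1430 CPM in SP/CD127-/lo Tregs (adjusted p = 0.342). Plek, the protein kinase C substrate pleckstrin of platelets and leukocytes, had 16.4, 10.6 and 0.293 CPM in SP/CD127-/lo Tregs and 0 in each graft library (adjusted p = 0.0148). Plek lost its call in 4 of the 6 fits without 1 library, with adjusted p from 0.0602 to 0.0940, and under the newer test (0.276).

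The other lower DEGs were Gcsh, Tmem185a and Gm13546. Gcsh, the H protein of the glycine cleavage system, had 30.2, 46.8 and 0 CPM in SP/CD127-/lo Tregs and 0, 0 and 0.298 CPM in graft Tregs (adjusted p = 0.0403). Tmem185a, a gene on the X chromosome for a membrane protein, had 43.8, 11.6 and 31.4 CPM in SP/CD127-/lo Tregs and 0 in each graft library, at least 34.3-fold lower (adjusted p = 0.0421). Gm13546, a noncoding gene that overlaps Cytip on the other strand, had 16.4, 14.8 and 34.6 CPM in SP/CD127-/lo Tregs and 0 in each graft library (adjusted p = 0.0304). Tmem185a and Gm13546 were present in each SP/CD127-/lo library and in no graft library, and were 2 of 149 such genes among the 25347 tested, while 87 genes were present in each graft library and in no SP/CD127-/lo library. Tmem185a lost its call in 5 of the 6 fits without 1 library, and Gm13546 and Gcsh each in 4 of the 6.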

How the data were processed

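RNA of sorted cells was amplified with SMART-Seq v4 and made into Nextera XT libraries. The authors deposited STAR gene counts per library on the mouse genome (mm10 with EGFP). Versions of STAR, Trim Galore and FastQC are not given in the sources used here. The first column of counts, summed over both strands, was used, and the summary lines at the head of each file were left out (no feature, 13.2 to 35.5% of reads in the 6 libraries). Nothing tells reads of overlapping genes on opposite strands apart. Intervals and detection limits (3 counts) cover counting error only.

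The main test was the quasi-likelihood test of edgeR 4.0.16 (R 4.3.3) in its earlier form, which is the default of that version, with TMM factors, all 33 libraries and a mean per subset, on the genes that reached 1 CPM in any 1 library, with Benjamini-Hochberg adjustment. CPM were computed from the deposited counts and the totals on genes times the TMM factors, except in the filter and the shares of counts, which used the totals alone. Alternatives were DESeq2 1.42.0, the likelihood ratio test, RLE factors, other filters, other sets of libraries, a replicate block and leaving out each library. The scripts were tested on simulated data. The SE of a log2 fold change was derived from that change and the F statistic of the main test. Exact permutation tests used scipy 1.17.1. Named genes were the DEGs (1 is not reported here), Foxp3, EGFP, Il7r and Cd4, the Treg identity genes, and up to 4 members of each gene list with the smallest p among those with a mean of at least 5 CPM. Gata3, Il18r1, Ighm, Hbb-bs, Gpx3, Fxyd2, Fyco1, mt-Co2, mt-Co3 and mt-Atp6 were chosen after their values were seen. The members and lists were chosen with earlier results of these data known. Gene coordinates are those of GENCODE vM21, and promoter coordinates those of RefSeq on GRCm38.p6.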

Additional observations from a re-analysis of the deposited data

How the results depend on the processing

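The number of DEGs depended on the test and the filter. Against 21 DEGs (14 higher, 7 lower), the likelihood ratio test gave 8 higher and 11 lower, DESeq2 gave 209 (65 higher, 144 lower), and no filter gave 33 (14 lower). Of the 21, 10 were called by the likelihood ratio test and 10 by DESeq2. The newer quasi-likelihood test gave 76 (47 higher, 29 lower). The stricter filter (at least 10 counts in at least 3 libraries) gave 0 DEGs in edgeR (0 higher, 0 lower), with 1167 genes at an unadjusted p under 0.05. The 6 compared libraries alone gave 3 (3 higher, 0 lower), which held 2 of the 21. The 24 spleen and graft libraries gave 15 (8 higher), which held 7 of the 21. With RLE factors there were 22 DEGs, which held all 21. The cause of these shifts was not tested.

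Leaving out each library gave 8 to 28 DEGs, 5 to 16 higher and 3 to 14 lower. The fewest, 8, came without SP/CD127-/lo replicate 3. Without SP/CD127-/lo replicate 2 there were 8 higher DEGs, without SP/CD127-/lo replicate 1 there were 4 lower, and without graft replicate 2 or 3 there were 11 or 14 lower. The DEGs called in all 6 of these fits were Cxcr6, H2-Ab1 and Malat1. Of the 16 alternatives, 14 called Cxcr6 and 14 Malat1, while 11 called H2-Ab1. Blnk also lost its call without SP/CD127-/lo replicate 1 or 3 (adjusted p = 0.0610 and 0.0619), and Cr2 without SP/CD127-/lo replicate 3 (0.0729). The log2 fold change turned sign for Cr2 (-4.60 without graft replicate 3, up to 5.35 without SP/CD127-/lo replicate 1, and -1.90 with the replicate block in the 6 libraries). When a library was left out it ran from -0.072 to 0.43 for EGFP, from -0.069 to 0.67 for Ikzf2 and from -11.19 to 2.31 for Hbb-bs. The marker sums and the mitochondrial share moved by less than the spread between libraries when a library was left out.

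Whether same-numbered libraries came from the same mice is not given in the sources used here. Their deviations from the group means correlated at r of 0.0046, -0.0015 and 0.0208, and those of other pairs at -0.0359 to 0.0333. Since libraries of the same subset also differed from each other, these values cannot show whether the numbers pair the samples. With the replicate number as a block there were 40 DEGs over all libraries (22 higher, 18 lower), which held all 21, and 13 over the 6 libraries (2 lower). The 6 libraries without a block gave 3.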
